A study of Sus scrofa with 12 samples.

Results

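The perfusion bioreactor and spinner flask microcarrier cultures gave 8 of the 12 libraries of the series, 4 from each culture, and the 252 microRNAs (miRNAs) listed for all libraries were compared between them. Libraries were assigned by the culture method in their titles and paired by donor number. The miRNAs were those of extracellular vesicles (small membrane-bound particles shed by cells) pelleted by differential ultracentrifugation from the conditioned medium of porcine mesenchymal stromal cells. The stromal cells came from bone marrow of 4 wild-type juvenile Yucatan minipigs, and cells of each donor were grown by each method. In the perfusion group the cells sat on bioscaffolds over which medium circulated at 4 mL/min. In the microcarrier group they were seeded on carrier beads without fetal bovine serum for 2 hours, after which 10% serum was added, and kept in a spinner flask. The labels give no serum content for the perfusion medium, so culture vessel and serum cannot be told apart. The other 4 libraries, from flat tissue culture plates with 10% serum, entered the fit to estimate the spread and are given beside some results. Values are normalized read counts, that is reads divided by 1 factor per library. Reads recovered over the 252 listed miRNAs summed to 671012 to 1614726 per library in perfusion, against 607776 to 2244584 on microcarriers.

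A miRNA is cut from a hairpin precursor, whose 5p and 3p arms can each yield a mature strand, and it represses messages that pair with its seed. Stromal cells load part of their miRNAs into vesicles, and a miRNA typical of another cell type can reach a vesicle pellet with particles from other cells or from serum. miRNAs lying side by side in the genome are often made from 1 transcript. In whole vesicle RNA a smaller number of vesicles that carry a miRNA and less of it per vesicle cannot be told apart.

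Vesicles from perfusion culture carried less of miR-144, miR-451 and miR-486 of red cells, miR-223, miR-142 and miR-150 of white cells, miR-126 of endothelium and miR-122-5p of liver, less of miR-27a and both arms of miR-27b, and more of miR-143-3p, miR-145-5p, miR-7-5p and miR-500-5p than vesicles from microcarriers. Not every measured white blood cell miRNA fell: miR-181a was called higher and miR-155-5p was not called (below). In limma with donor as a block, 59 of the 252 miRNAs passed an adjusted p of 0.05, which is 23.4% of those tested. Of these, 34 were lower in perfusion (13.5%) and 25 were higher (9.92%). Counts of calls in the lists and families below stand against these shares, and no list was tested against them. The 25 count miR-218-5p and miR-218b separately, although they are 1 result (below). Some other names among the 252 also repeat counts. miR-9-1 and miR-9-2 equal miR-9, miR-129b nearly equals miR-129a-5p, and miR-199a-3p is 2.00 times miR-199b-3p in every library. The falls were the larger changes: the median log2 fold change was -2.87 among the 34 and 1.26 among the 25, and 20 falls against 2 rises exceeded 2 on the log2 scale (13 and 0 of the same calls with a pseudocount of 10). Without miR-223 and miR-452, listed at 0 in all perfusion libraries, the falls had a median of -2.81 and 18 of 32 exceeded 2 on that scale. Fold changes are perfusion minus microcarriers on the log2(value + 1) scale throughout, ± SE from 4 libraries per group, and every adjusted p is from limma with Benjamini-Hochberg adjustment over the 252 miRNAs. In 57 of the 59 the difference had the same sign in all 4 donors, as it had in 47.2% of all miRNAs, and in 43 of the 59 the values of both groups did not overlap, as in 24.6% of all. Without the donor block 39 passed, 14 higher and 25 lower (15.5%), all of them among the 59. The named calls that rest on the donor block are those of miR-27b-3p, miR-24-2-5p, miR-24-3p, miR-20a-5p, miR-127, miR-382, miR-210, miR-342, miR-181a, miR-181b, miR-214-3p, miR-218-5p, miR-218b, miR-296-3p and miR-582-5p. Of the calls named below, those of miR-20a-5p and miR-582-5p were lost in 19 of 29 alternative settings, those of miR-382, miR-296-3p and miR-181b in 16, that of miR-2411 in 15, those of miR-24-3p and miR-181a in 14 and that of miR-210 in 12. Without microcarriers replicate 3 the count was 39, with 14 higher. Without perfusion replicate 1, 2, 3 or 4 the numbers higher were 15, 14, 14 and 15. Without the perfusion, microcarrier and plate libraries of donor 3 the count was 29, with 8 higher and 21 lower. Scaled to library totals the split was 30 higher against 29 lower; this scaling moved the median of the 252 log2 fold changes to 0.08, against -0.07.

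**Figure D1:**
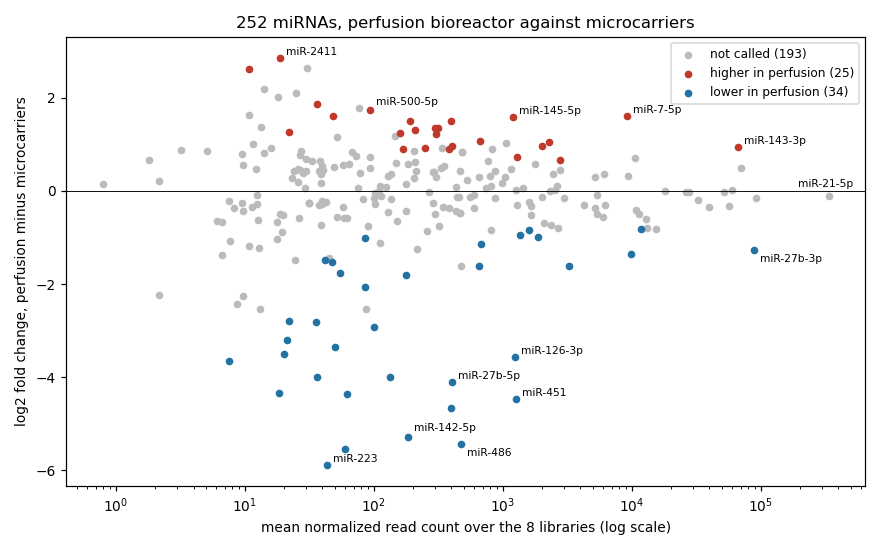
Log2 fold change (perfusion minus microcarriers, y axis) against the mean normalized read count over the 8 libraries (x axis, log scale), 1 point per miRNA. Red points are the 25 miRNAs higher and blue points the 34 lower at an adjusted p of 0.05. The blue points reach below -5, while no red point is above 3. The positions of miR-223 and miR-452, listed at 0 in all perfusion libraries, depend on the pseudocount.

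The erythroid miRNAs fell in every donor. miR-144 and miR-451, which share a precursor transcript and act in red cell maturation, and miR-486, which is high in red cells and muscle, were all called lower (3 of 3 measured, median log2 fold change -5.43, against -0.07 over all 252). In perfusion donors 1, 2, 3 and 4, in that order here and below, miR-144 stood at 1.45, 5.83, 0 and 0 normalized counts, against 267, 96.4, 47.2 and 61 on microcarriers. The 2 perfusion libraries above 0 were still below every microcarrier library (-5.54 ± 0.50, adjusted p = 3.8e-05, and -3.17 with a pseudocount of 10). miR-451 stood at 23.9, 299, 181 and 78 in perfusion and 3817, 1829.8, 1776 and 2125 on microcarriers. Donor 1 had the lowest value in perfusion and the highest on microcarriers, and the groups did not overlap (-4.48 ± 0.70, adjusted p = 0.00114). For miR-486 the values were 3.62, 29.1, 16.2 and 9.75 in perfusion against 2658, 584, 251 and 226 on microcarriers (-5.43 ± 0.70, adjusted p = 0.000288). The 3 miRNAs together made up 0.00272% to 0.0256% of the counts in perfusion and 0.171% to 0.571% on microcarriers.

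Of 7 measured miRNAs of the white blood cell list, 5 fell and 1 rose, and the list's median log2 fold change, -4.00, is that of miR-150. miR-223, the miRNA of myeloid cells, was listed at 0 in all 4 perfusion libraries and at 219, 56.6, 50.4 and 18.1 on microcarriers, so no fold is given. The 2 arms of miR-142, made in blood cells of all kinds, fell together. miR-142-5p stood at 3.62, 9.71, 8.12 and 3 in perfusion and 939, 226, 147 and 129 on microcarriers (-5.28 ± 0.54, adjusted p = 4.57e-05). miR-142-3p stood at 2.89, 9.71, 6.77 and 0 in perfusion against 303, 70.9, 58.7 and 42.9 on microcarriers (-4.36 ± 0.56, adjusted p = 0.000288, and -2.77 with a pseudocount of 10). miR-150, high in lymphocytes, was at 3.62, 31.1, 13.5 and 6.75 in perfusion and 649.8, 156, 127 and 83.6 on microcarriers (-4.00 ± 0.72, adjusted p = 0.00248). In all of these the groups were apart and donor 1 was the highest microcarrier library. The fifth fall was that of miR-342 (-1.77 ± 0.39, adjusted p = 0.00707). The rise was that of miR-181a, which many tissues express, with 4812, 1937, 3568 and 3179.6 in perfusion against 2974, 906, 2322 and 2642 on microcarriers. The groups overlapped, and the call (0.67 ± 0.21, adjusted p = 0.0442) ended when any of 8 single libraries was left out (adjusted p = 0.052 to 0.146). The remaining member, miR-155-5p, was not called (adjusted p = 0.471). miR-155-5p and miR-181a are the most abundant members. The summed share of the list was 1.08%, 0.909%, 0.734% and 0.786% in perfusion. On microcarriers it was 0.738%, 0.565%, 0.527% and 0.822%. The share was thus higher in perfusion in donors 1, 2 and 3 and lower in donor 4. Which cells or media these miRNAs came from was not tested.

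Endothelial miR-126, from an intron of a gene of blood vessel cells, fell in both arms (2 of 2 measured). miR-126-3p was at 119, 142, 185 and 130.5 normalized counts in perfusion and 5951, 1572, 963 and 902 on microcarriers. The perfusion values lay within a narrow range, while microcarrier donor 1 was far above the other donors, and the groups did not overlap (-3.56 ± 0.46, adjusted p = 0.000288). miR-126-5p was much lower in level, at 0, 5.83, 5.41 and 3.75 in perfusion against 140.5, 44.6, 47.2 and 42.9 on microcarriers (-4.00 ± 0.72, adjusted p = 0.00248, and -2.38 with a pseudocount of 10).

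Of 4 measured liver and gut miRNAs 3 fell, with a median log2 fold change of -3.22. miR-122-5p, the main miRNA of hepatocytes, was at 7.24, 40.8, 18.9 and 18.7 in perfusion and 1911, 802, 178 and 201 on microcarriers (-4.66 ± 0.66, adjusted p = 0.000605). On microcarriers donors 1 and 2 were far above donors 3 and 4, yet the lowest of them exceeded every perfusion library. miR-192, of gut and liver epithelium, stood at 13, 19.4, 12.2 and 30.0 in perfusion against 427, 146, 77.2 and 79.1 on microcarriers (-2.93 ± 0.61, adjusted p = 0.00546). Its genomic neighbour miR-194a-5p stood at 0, 3.88, 0 and 2.25 in perfusion against 107, 27.1, 14.7 and 4.52 on microcarriers (-3.50 ± 0.79, adjusted p = 0.00821, and -1.63 with a pseudocount of 10). In donor 4 these values of miR-194a-5p are 3 reads in perfusion and 2 on microcarriers. miR-215, a near relative of miR-192, was lower in all 4 donors without passing (-1.22, 95% interval -2.44 to -0.01, adjusted p = 0.139). Of 10 measured members of the serum-borne list, 4 fell and 1 rose (median -0.71), against 13.5% lower and 9.92% higher over all 252. The 4 were miR-144, miR-451, miR-486 and miR-122-5p, which also stand in the lists above, and the rise was that of miR-423-3p (1.06 ± 0.27, adjusted p = 0.0161), lost without perfusion replicate 1, 3 or 4 (adjusted p = 0.0563 to 0.0705). The share of the whole list overlapped between the groups, at 1.06% to 1.34% in perfusion and 1.02% to 1.93% on microcarriers.

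**Figure D2:**
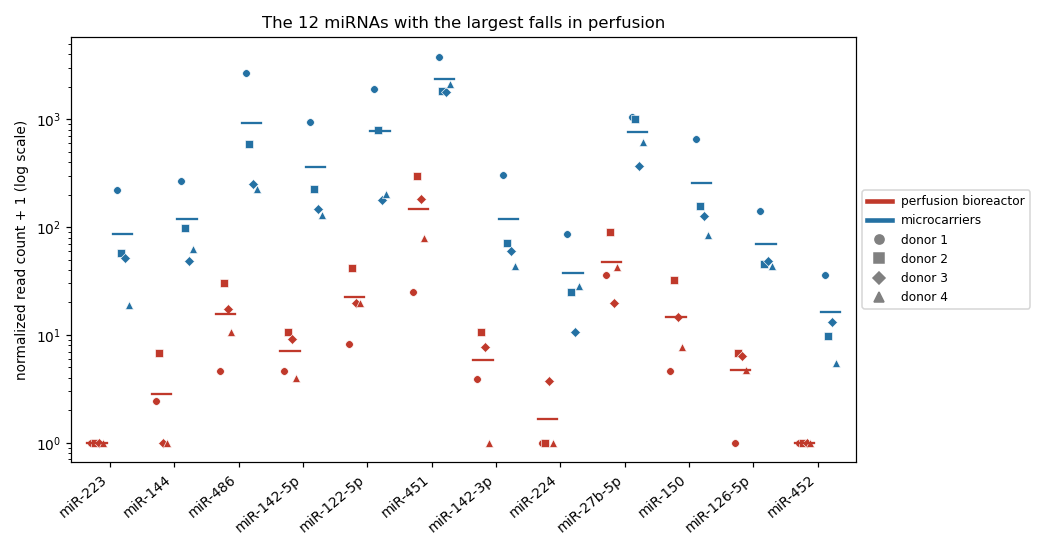
Normalized read count + 1 (y axis, log scale) of the 12 miRNAs with the largest fitted falls in perfusion, for each of the 4 perfusion (red, left) and 4 microcarrier (blue, right) libraries. Marker shapes are donors and horizontal lines are group means; in all 12 the red and blue points do not overlap, and miR-223 and miR-452 are listed at 0 in every perfusion library.

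The miR-23/27/24 clusters are a pair of related transcripts, 1 with miR-23a, miR-27a and miR-24 and 1 with miR-23b, miR-27b and miR-24. miR-27 is known for restraining fat cell formation. Of 8 measured members 5 fell and none rose (median log2 fold change -1.04). miR-27b-3p, at 57265, 93036, 20884 and 45895 normalized counts in perfusion and 160507, 149108, 57555 and 125027 on microcarriers, was lower in perfusion in each donor. Across donors the groups overlapped, since donor 3 was low and donor 2 high in perfusion (-1.27 ± 0.22, adjusted p = 0.00248). This call rested on the pairing, as the adjusted p without the donor block was 0.104. miR-27b-3p took 4.57% ± 2.21 of the counts in perfusion and 9.63% ± 3.75 on microcarriers (± SD over 4 libraries), the largest difference in share of any of the 252. Its other arm changed more: miR-27b-5p stood at 34.7, 89.4, 18.9 and 41.2 in perfusion against 1047, 994, 369 and 613 on microcarriers (-4.10 ± 0.41, adjusted p = 4.57e-05). miR-27a, near-identical to miR-27b-3p so that reads could be split between them, was at 5286, 6707, 3758 and 6754 in perfusion and 15622, 15445, 10835 and 14744 on microcarriers, with no overlap (-1.36 ± 0.22, adjusted p = 0.00152). miR-24-2-5p (-1.52 ± 0.31, adjusted p = 0.00497) was not called without the donor block (adjusted p = 0.0898). miR-24-3p (-0.82 ± 0.26, adjusted p = 0.0412) was not called without any of 7 single libraries (adjusted p = 0.0613 to 0.132), nor scaled to library totals or by trimmed mean of M-values, nor with no trend in the prior variance. miR-23a, miR-23b and miR-24-1-5p were lower on average without passing (log2 fold changes of -0.60, -0.80 and -0.49).

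Members of the imprinted DLK1-DIO3 cluster, a large group of miRNAs expressed from the maternal chromosome in stromal and embryonic tissue, were called lower in perfusion in 5 of 9 cases and higher in none (median -1.81). The summed share of the 9 was 0.0384%, 0.0762%, 0.0635% and 0.0272% in perfusion donors 1 to 4, against 0.194%, 0.151%, 0.0458% and 0.0240% on microcarriers. It was thus lower in perfusion in donors 1 and 2 and higher in donors 3 and 4, and the groups overlapped. The most abundant member, miR-381-3p, was not called (log2 fold change -0.36), nor were miR-136-3p (-1.19), miR-411 (-0.65) and miR-370 (0.68). miR-493-5p stood at 8.68, 3.88, 2.71 and 2.25 normalized counts in perfusion and 196, 48.6, 8.93 and 13.6 on microcarriers (-2.82 ± 0.50, adjusted p = 0.00248, or -1.77 at pseudocount 10). Its partner arm miR-493-3p stood at 3.62, 15.5, 0 and 4.5 in perfusion against 267, 79.7, 13.4 and 13.6 on microcarriers (-3.35 ± 0.64, adjusted p = 0.00367, and -2.02 with a pseudocount of 10). The falls were large in donors 1 and 2, and in donors 3 and 4 the microcarrier values were themselves low. In donor 4 miR-493-3p was 6 reads in both cultures, so its gap there comes from the library factors alone. miR-432-5p was at 1.45, 3.88, 2.71 and 1.5 in perfusion against 118, 34.3, 10.2 and 4.52 on microcarriers (-2.80 ± 0.66, adjusted p = 0.0102, and -1.54 with a pseudocount of 10). Each of its perfusion values is 2 reads, and so is its donor 4 value on microcarriers. Its gap in donor 4 thus comes from the library factors alone. miR-127, the most abundant of the 5 called, was at 57.2, 81.6, 56.8 and 28.5 in perfusion against 698, 351, 77.8 and 63.3 on microcarriers and overlapped between the groups. Its call (-1.81 ± 0.51, adjusted p = 0.0267) ended without any of 5 single libraries (adjusted p = 0.0721 to 0.0907). miR-382 (-3.21 ± 1.02, adjusted p = 0.0442, and -1.66 with a pseudocount of 10) fell in 3 of 4 donors, and 8 single libraries each ended its call (adjusted p = 0.057 to 0.158). By donor the median log2 difference of the 9 members was -3.59 in donor 1, -2.09 in donor 2, -0.45 in donor 3 and -0.47 in donor 4.

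miR-224 and miR-452, which share an intron on the X chromosome in human, were at or near 0 in perfusion vesicles. miR-224 was at 0, 0, 2.71 and 0 in perfusion and 84.7, 23.9, 9.57 and 27.1 on microcarriers (-4.35 ± 0.90, adjusted p = 0.00546, and -1.88 with a pseudocount of 10). miR-452 was listed at 0 in all 4 perfusion libraries, against 35.3, 8.76, 12.1 and 4.52 on microcarriers, and no fold is given. On microcarriers the donor 4 value of miR-452 is 2 reads, the lowest number of reads that any of these 8 libraries lists.

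miR-210, induced under low oxygen, stood at 448, 332, 363 and 449.9 normalized counts in perfusion and 401, 906, 1164 and 1399 on microcarriers. In donor 1 it was slightly higher in perfusion, and in donors 2, 3 and 4 it was lower. The fall (-1.15 ± 0.33, adjusted p = 0.0272) was not called without the donor block, with scaling by trimmed mean of M-values, or when any of 6 single libraries was left out (adjusted p = 0.0627 to 0.115). Both groups were above the plate libraries, at 77.6, 163, 179 and 164. Among 12 hypoxia-linked miRNAs 3 fell, namely miR-27a, miR-210 and miR-24-3p, and 1, miR-181b (0.74 ± 0.23, adjusted p = 0.0398), rose. Over all 252 miRNAs 13.5% fell and 9.92% rose. The rise of miR-181b ended without any of 8 single libraries (adjusted p = 0.0581 to 0.129).

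Single falls in other lists were those of miR-140-3p, miR-221-5p, miR-30e-5p and miR-20a-5p. miR-140-3p, made in cartilage and in stromal cells, stood at 1199.6, 1762, 1469 and 1982 in perfusion and 5004, 4107, 4349.9 and 6001 on microcarriers with no overlap (-1.61 ± 0.35, adjusted p = 0.00707). miR-221-5p, the lesser arm of a miRNA that promotes proliferation, was at 495, 204, 237 and 382 in perfusion against 779.8, 1310.4, 743 and 1074 on microcarriers (-1.62 ± 0.43, adjusted p = 0.0208). miR-30e-5p was at 644, 1146, 816 and 1201 in perfusion against 1882, 1647, 1878 and 1695 on microcarriers (-0.94 ± 0.27, adjusted p = 0.0293), and miR-20a-5p of the miR-17-92 cluster overlapped between the groups (-0.84 ± 0.28, adjusted p = 0.0497). Single libraries ended the last 3 calls, 6 of them that of miR-221-5p (adjusted p = 0.0513 to 0.0876), 5 that of miR-30e-5p (0.0694 to 0.117) and 8 that of miR-20a-5p (0.0655 to 0.155). Scaling to library totals also ended the calls of miR-30e-5p and miR-20a-5p. That of miR-20a-5p ended as well by trimmed mean of M-values, with a pseudocount of 0.1, with the filter at 10, with no trend in the prior variance and in limma-voom.

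miR-143 and miR-145, a pair from 1 transcript that marks contractile stromal and smooth muscle cells, rose in perfusion in their main arms. miR-143-3p was at 72605, 116006, 82896 and 77143 normalized counts in perfusion and 42545, 51255, 59289 and 30687 on microcarriers, with no overlap (0.94 ± 0.18, adjusted p = 0.00337). It took 7.49% ± 1.13 of the counts in perfusion and 3.63% ± 1.09 on microcarriers (± SD over 4 libraries). miR-145-5p was at 1765, 1806, 1981 and 1406 in perfusion against 352, 571, 1186 and 454 on microcarriers (1.59 ± 0.29, adjusted p = 0.00248). The perfusion values lay close together, and microcarrier donor 3 was the highest of its group. Of the 4 arms of the pair 2 were called; the median over the 4 was 0.76. The lesser arms miR-143-5p (0.58, 95% interval -0.01 to 1.18) and miR-145-3p (0.44, -0.83 to 1.71, and -0.20 without microcarriers replicate 4) did not pass. The plate libraries held 56893, 82400, 97738 and 66707 of miR-143-3p and 724, 1631, 2539 and 1095 of miR-145-5p.

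miR-133a-3p, a miRNA of muscle, rose: it stood at 59.3, 69.9, 67.7 and 34.5 in perfusion and 10.5, 22.3, 16.6 and 11.3 on microcarriers (1.87 ± 0.32, adjusted p = 0.0024). The other muscle miRNAs measured, miR-1 (-0.44, 95% interval -1.52 to 0.64) and miR-499-5p (-0.24, -0.89 to 0.41), did not pass, which leaves 1 of 3 higher. miR-7-5p, a miRNA of neural and hormone-producing cells with several gene copies, was at 14392, 27006, 4486 and 12064 normalized counts in perfusion and 3755, 5054, 2997 and 4231 on microcarriers. It was higher in perfusion in each donor, by most in donor 2, and perfusion donor 3 was below microcarrier donor 2 (1.61 ± 0.33, adjusted p = 0.00497). The plate values, 4138, 5488, 3100.3 and 2099.9, were near those of microcarriers.

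miR-500-5p, of an X-linked cluster with miR-532 and miR-362, had the smallest p of all rises. It stood at 106, 126, 188 and 156 in perfusion and 26.8, 32.7, 58.1 and 56.5 on microcarriers (1.75 ± 0.26, adjusted p = 0.000779), while plates held 32.3, 29.6, 48.4 and 40.3. Of the 6 measured members of that cluster it was the 1 called (median 0.60). miR-362, at 68, 105, 86.6 and 84 in perfusion against 38.9, 32.7, 63.2 and 63.3 on microcarriers, did not overlap between the groups and did not pass (adjusted p = 0.0687), and the 3p arm miR-500-3p overlapped (0.38, 95% interval -0.34 to 1.10). miR-149, from an intron of a proteoglycan gene in human, was at 259, 282, 271 and 367 in perfusion against 105, 131, 149 and 92.7 on microcarriers (1.31 ± 0.26, adjusted p = 0.00497). miR-503, of the miR-15/16 family that slows the cell cycle, was at 239, 303, 153 and 206 in perfusion against 104, 108, 93.8 and 67.8 on microcarriers (1.24 ± 0.26, adjusted p = 0.00546) and was the 1 higher of 8 measured in that family (median 0.42). Values of miR-149 and miR-503 did not overlap between the groups.

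miR-7857-3p was at 569, 179, 422 and 593 in perfusion and 163, 116, 195 and 158 on microcarriers (1.36 ± 0.29, adjusted p = 0.00547). miR-7134-5p was at 87.5, 56.3, 73.1 and 78 in perfusion against 25.3, 26.3, 21.1 and 20.3 on microcarriers (1.62 ± 0.38, adjusted p = 0.0102). Every perfusion library exceeded every microcarrier library for miR-7134-5p, and for miR-7857-3p perfusion donor 2 lay among the microcarrier values. miR-196b-5p, which lies in a HOX gene cluster, was at 755, 876, 931 and 1014 in perfusion against 328, 365, 563 and 479 on microcarriers (1.07 ± 0.25, adjusted p = 0.0102, and 0.0513 without perfusion replicate 1). It was the 1 higher of 5 HOX cluster miRNAs (median -0.32). miR-214-3p, made with miR-199a in mesenchymal tissue, was at 1655, 1704, 4157 and 3078 in perfusion against 943, 669, 2039.7 and 1969 on microcarriers and overlapped. Its call (0.96 ± 0.25, adjusted p = 0.0185) ended without any of 5 single libraries (adjusted p = 0.0613 to 0.0721).

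The ratio of miR-218-5p to miR-218b was 1.98 to 2.08 across the 12 libraries, so their counts cannot be told apart and are 1 result. miR-218-5p, which lies in introns of SLIT genes, stood at 391, 1806, 175 and 139 in perfusion and 287, 232, 93.1 and 42.9 on microcarriers. Donor 2 was far above the other perfusion libraries and the groups overlapped (1.49 ± 0.39, adjusted p = 0.017). Without perfusion replicate 2 or microcarriers replicate 2 the adjusted p was 0.056 to 0.0721. These and miR-7-5p were the rises in the neural list, whose 9 names (median 0.84) hold miR-218-5p and miR-218b, and likewise miR-129a-5p and miR-129b, as 1 result under 2 names. The largest fitted rises were those of 2 miRNAs near the limit of the libraries. miR-2411 stood at 21.7, 62.2, 20.3 and 28.5 in perfusion against 6.31, 5.58, 5.74 and 0 on microcarriers (2.86 ± 0.93, adjusted p = 0.0478, and 1.51 with a pseudocount of 10). miR-582-5p stood at 10.1, 35, 12.2 and 15 in perfusion against 0, 5.58, 8.29 and 0 on microcarriers (2.61 ± 0.86, adjusted p = 0.0497, and 1.03 with a pseudocount of 10). These 2 and miR-296-3p (1.34 ± 0.44, adjusted p = 0.0482) lost their calls without any of 8, 9 and 9 single libraries (adjusted p = 0.0555 to 0.179, 0.0531 to 0.162 and 0.057 to 0.170).

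**Figure D3:**
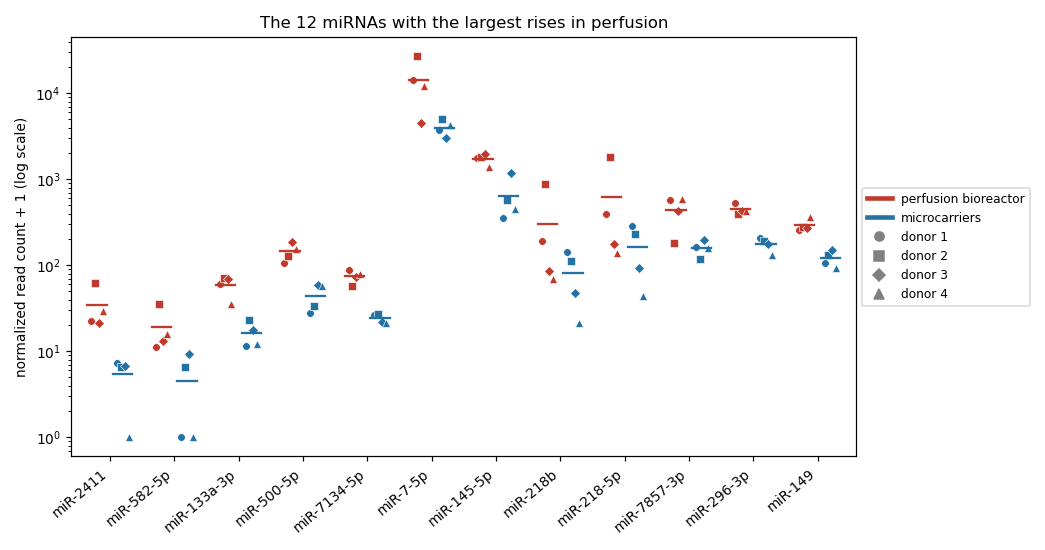
Normalized read count + 1 (y axis, log scale) of the 12 miRNAs with the largest rises in perfusion, for each of the 4 perfusion (red, left) and 4 microcarrier (blue, right) libraries. Marker shapes are donors and horizontal lines are group means; miR-7-5p is the most abundant, and the points of miR-7-5p, miR-218-5p, miR-218b and miR-7857-3p overlap between the groups.

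Of the 10 most abundant miRNAs, miR-27b-3p and miR-143-3p passed the test, against 23.4% of all 252. miR-21-5p, the leading miRNA of every library, was at 313032, 353218, 282810 and 332201 normalized counts in perfusion and 242210, 364175, 377624 and 434955 on microcarriers (-0.12, 95% interval -0.47 to 0.23), and its difference turned to 0.02 under scaling to library totals. miR-148a-3p stood at 64589, 83946, 78041 and 103558 in perfusion against 63475, 60897, 53444 and 56026 on microcarriers. Its groups did not overlap and it was higher in all 4 donors, but it did not pass (0.48 ± 0.17, adjusted p = 0.0636). miR-100 (0.02, 95% interval -0.35 to 0.39), miR-199a-3p (-0.03, -0.40 to 0.34), let-7i-5p (-0.15, -0.47 to 0.17), let-7f-5p (-0.32, -0.76 to 0.11), let-7a (-0.35, -0.90 to 0.20) and miR-26a (-0.20, -0.79 to 0.38) completed the 10 most abundant, and none passed. The directions of miR-100, miR-199a-3p and miR-26a turned under some scalings or left-out libraries. Summed over all miRNAs, the mean shares of the 2 groups differed by 22.9 percentage points in absolute value. The 10 largest differences held 68.6% of that sum, led by miR-27b-3p, miR-143-3p and miR-148a-3p (22.1%, 16.8% and 11.0%). The 10 leading miRNAs of each library held 74.3% ± 1.07 in perfusion and 73.5% ± 2.00 on microcarriers (± SD over 4 libraries), a difference within the spread (exact two-sided permutation p = 0.514, smallest possible 0.0286). The numbers of miRNAs listed, 242.25 ± 3.40 in perfusion and 247.25 ± 6.18 on microcarriers (± SD over 4 libraries), gave an exact unpaired permutation p of 0.229 and a sign-flip p of 0.375.

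The mesenchymal stromal list held 53.2% to 57.4% of the counts in perfusion and 43.1% to 57.1% on microcarriers. Much of this was miR-21-5p, which alone held 26.8% to 29.4% in perfusion and 20.5% to 31.7% on microcarriers. The share of the list therefore does not check the cell label. Of the list's 37 measured members 4 rose, namely miR-143-3p, miR-145-5p, miR-196b-5p and miR-214-3p, and 1, miR-221-5p, fell (median -0.12). No member of the epithelial list was among the miRNAs listed. Among lists with no call were let-7 (11 measured, median -0.01), miR-29 (4, -0.39), the miR-183 cluster (3, -0.65) and the miR-10 and miR-100 families (9, 0.02). The miR-17-92 cluster and paralogues had 1 lower of 10 (median 0.30) and the miR-30 family 1 lower of 9 (-0.24). Function lists were mixed. Over all 252 miRNAs 9.92% were higher and 13.5% lower, and no list was tested against these shares. Flow-responsive miRNAs, those known to react to fluid shear or stretch in other cells, had 3 higher and 4 lower of 22 (median -0.27), and miR-27b-3p, miR-27b-5p and both arms of miR-126 were the 4 lower. Angiogenesis-linked miRNAs had 1 higher and 6 lower of 16 (-0.70), inflammation-linked ones 1 and 1 of 8 (0.12), and cartilage-linked ones 1 and 3 of 13 (-0.15). Osteogenesis-promoting miRNAs had 1 higher and 2 lower of 13 (-0.49), osteogenesis-restraining ones 1 and 1 of 7 (-0.82), and p53-induced ones 1 and 1 of 5 (-1.02). These lists overlap with those above.

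**Figure D4:**
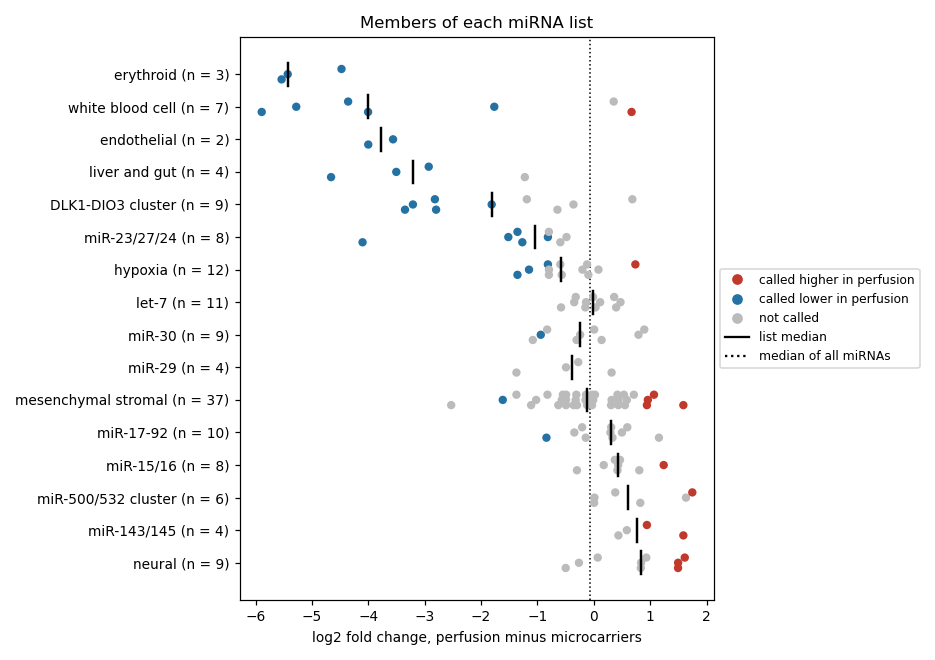
Log2 fold change (perfusion minus microcarriers, x axis) of every measured member of 16 miRNA lists (rows, with the number of members). Red and blue points are called higher and lower, grey points are not called, the black bar is the list median and the dotted line the median of all 252 (-0.07). The blood cell, endothelial and liver rows lie furthest to the left.

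For 52 hairpins both arms were listed. Both arms were called in 4, always in the same direction and always lower in perfusion: miR-126, miR-142, miR-493 and miR-27b. In 14 only 1 arm was called and in 34 neither, where 23.4% of all 252 miRNAs were called. Whether the arms changed differently was tested on the log2 ratio of 5p to 3p per library, over the 52 hairpins in limma with donor as a block, a test added after seeing the data. The ratio differed between the cultures for 2 hairpins (3.85% of those tested). That of miR-27b was lower in perfusion, at a log2 difference of -2.83 ± 0.37 (adjusted p = 0.00183), so the 5p arm fell more than the 3p arm. That of miR-7134 was higher by 1.87 ± 0.36 (adjusted p = 0.0145): the 5p arm rose, while miR-7134-3p, at 226, 264, 195 and 307 in perfusion and 445, 484, 200.3 and 169.5 on microcarriers, did not pass. The call of miR-27b remained without any single library, and that of miR-7134 ended without perfusion replicate 1, 2 or 3 or microcarriers replicate 1 or 3 (adjusted p = 0.0508 to 0.0836). For miR-7, miR-500, miR-140 and miR-145, where 1 arm was called and the other was not, the difference between the arms did not pass (adjusted p = 0.104, 0.104, 0.104 and 0.322).

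**Figure D5:**
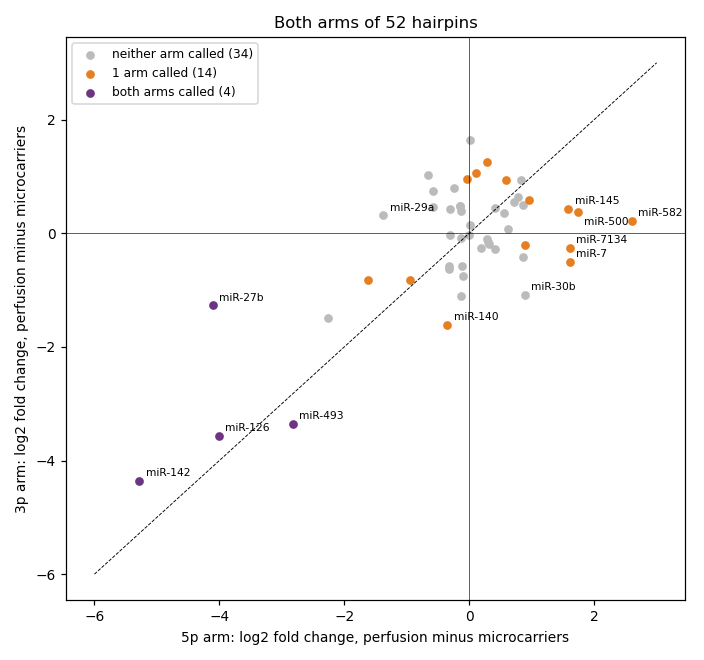
Log2 fold change (perfusion minus microcarriers) of the 5p arm (x axis) and the 3p arm (y axis) of 52 hairpins, with the line of equal change dashed. Purple points have both arms called (4), orange points 1 arm (14) and grey points neither (34). miR-126, miR-142 and miR-493 lie near the line and miR-27b far above it.

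In RefSeq's pig annotation (assembly Sscrofa11.1) 227 of the 252 miRNAs matched a miRNA gene by name, and 31 groups of miRNAs of different hairpins had start sites within 10000 bases of the next. Calls occurred in 15 groups, 10 of these held 2 or more, and in none of the 31 did calls go in both directions. The groups share members: miR-181a with miR-181b makes up 2 of the 10, and miR-24-3p counts in 2 groups. Both arms of a hairpin count separately. Of all 252 miRNAs 23.4% were called, and the groups were not tested against this share. The groups with the largest changes were miR-144 with miR-451, miR-224 with miR-452, miR-192 with miR-194a-5p, and miR-127 with miR-432-5p (and miR-136-3p, not called), the called ones all lower in perfusion. The main arms of miR-143 and miR-145 were higher, as were miR-181a and miR-181b, whose counts do not tell their gene pairs apart. The miR-17-92 group, with 6 members listed, ranged from -0.84 for miR-20a-5p to 1.15 for miR-18a, of which only the first passed.

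The donors differed in the size of the falls. Over the 34 miRNAs called lower the median log2 difference was -4.90 in donor 1, -2.64 in donor 2, -1.86 in donor 3 and -1.54 in donor 4, or -4.62, -2.57, -1.70 and -1.47 without miR-223 and miR-452. For the 25 called higher it was 1.20, 1.14, 0.88 and 1.53. In the erythroid, white blood cell, endothelial and liver lists donor 1 had the largest median difference (-7.26, -6.29, -6.39 and -5.85), with the highest summed share on microcarriers in the erythroid, endothelial and liver lists. These values are descriptive, as the miRNAs were selected on all donors together. Without any single perfusion, microcarrier or plate library the calls of miR-144, miR-451, miR-486, miR-142-5p, miR-142-3p, miR-150, miR-126-3p, miR-126-5p, miR-122-5p, miR-192 and miR-194a-5p remained. With all libraries of donor 3 left out, calls that ended included those of miR-194a-5p, miR-139-5p, miR-140-3p, miR-7134-5p, miR-196b-5p, miR-218-5p and miR-452 (adjusted p = 0.0569, 0.0512, 0.0509, 0.0688, 0.0509, 0.0509 and 0.0904). With those of donor 1 left out, they included miR-432-5p and miR-452 (adjusted p = 0.0634 and 0.0759).

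Plate means are given here beside those of the 2 dynamic cultures, as a description. The plate mean lay between the perfusion and microcarrier means for 29 of the 34 miRNAs lower in perfusion and 15 of the 25 higher, against 93 of all 252. The called miRNAs were selected for a gap between those 2 means, which leaves more room for the plate mean between them. The excess over all 252 is therefore partly built in and was not tested. Among the rises the plate mean lay beyond the microcarrier side for 5 and beyond the perfusion side for 5. miR-218-5p, at 719.7, 2054, 319 and 365 on plates, is an example beyond the perfusion side, and miR-7-5p one beyond the microcarrier side. The plate levels of miR-451 (1925, 1104, 499 and 364) and miR-126-3p (2123, 1557, 564 and 693) exceeded every perfusion library.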

How the data were processed

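RNA of ultracentrifuged vesicles went into NEBNext small RNA libraries, per the labels' protocols. Bowtie is the aligner named in the submitters' processing notes; its version, the genome build and how reads were counted: not given in the sources used here. A normalized read count is the deposited signal for each mature miRNA, per the file headers. All values (100% within 0.001 of a read) were multiples of the worth of 1 read in their library, which recovered the reads. Mature sequences were not used here. No column was left out.

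Perfusion was compared with microcarriers in limma 3.58.1 (trend; R 4.3.3) on log2(value + 1), fitting all 12 libraries with terms for culture method and donor. The filter, 1 or more in 4 libraries, kept all 252 miRNAs, and p-values were adjusted by Benjamini-Hochberg. Titles name the same animal for equal donor numbers, so these pair the libraries; within donors, deviations from the group mean correlated between the cultures at 0.0654 to 0.364. Named are the 12 largest rises and 12 largest falls among calls of 1 sign in 4 donors, their other arms, the 10 miRNAs of highest mean and, from each of 30 lists, the 4 members of smallest p. Others, such as miR-342, miR-382, miR-423-3p, miR-155-5p, miR-23a, miR-23b, miR-24-1-5p and miR-381-3p, were named after their values were seen. The comparison, members and lists were chosen with earlier results of these data known. Alternatives were the donor block, the libraries fitted, scaling, pseudocount, filter, prior variance, lists left out, threshold, limma-voom on recovered reads, and libraries or donors left out. Tables were made in Python 3.11.15 (pandas 2.3.3, NumPy 2.4.6; SciPy 1.17.1 for permutation tests). The fit was tested on simulated data for this comparison (252 miRNAs, 50 changed, 20 runs): among miRNAs at a mean of 20 or more, recovery was 34.4% at 2-fold, 97.8% at 4-fold and 99.7% at 8-fold, and 2.92% of calls were false. The simulation set 1 dispersion and 1 donor spread for every miRNA, not estimated from these data, and no plate effect. These rates hold for those settings and may differ in the data.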

Additional observations from a re-analysis of the deposited data

Results flagged for a closer look

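Of 188 groups of 4 libraries examined for the named miRNAs, 10 held a library far from the other 3 by Dixon's ratio of gap to range on the log2 scale, about what chance gives at 1 in 20. Microcarrier donor 1 was high for miR-126-5p (140.5 normalized counts, others 42.9 to 47.2) and low for let-7i-5p (71416, others 101737 to 107418). Microcarrier donor 3 was low for miR-27a (10835, others 14744 to 15622) and for miR-182 (238.0, others 430.2 to 479.2). Microcarrier donor 4 was listed at 0 for miR-2411 (others 5.58 to 6.31), was low for miR-497 (6.78, others 10.2 to 10.5) and was high for miR-125b (10063, others 5049 to 5278) and miR-96-5p (36.2, others 18.4 to 19.1). Perfusion donor 3 was high for miR-224 (2.71, the other 3 listed at 0) and for miR-18a (85.2, others 63.7 to 66.0). The call of miR-27a and that of miR-126-5p remained without any single library.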

How the results depend on the processing

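Of the 59 calls, 23 (8 higher and 15 lower in perfusion) were kept in every setting that tested them, 12 of these in all 29 and 11 in 28, as the setting without the lists leaves them out; 33 were kept without any single library; no setting gave a call of the opposite sign. Without the replicate block 39 miRNAs were called, 14 of them higher. Without the blood, endothelial, liver and gut and serum lists 22 were lower, as only 230 miRNAs were tested. limma-voom on recovered reads called 38 higher; the cause was not tested. With only the 8 perfusion and microcarrier libraries in the fit 73 were called, 31 higher and 42 lower. Leaving out single libraries or whole donors gave 29 to 70 calls, 8 to 31 of them higher and 21 to 39 lower. The 70 came without plate replicate 2, which had 264407 reads and 28 miRNAs listed at 0. The number of hairpins with a changed arm ratio was 4 with the 8 perfusion and microcarrier libraries alone, 8 with a pseudocount of 10, and 1 to 5 over the left-out libraries and donors; the cause was not tested. Small log2 differences turned sign: miR-21-5p was 0.025 and miR-199a-3p 0.11 scaled to library totals, miR-199a-3p was 0.060 by trimmed mean of M-values and 0.056 in limma-voom, and miR-100 was -0.043 without the lists. With libraries or donors left out, values ran from -0.16 to 0.069 for miR-199a-3p, -0.073 to 0.116 for miR-100, -0.429 to 0.045 for miR-26a, -0.20 to 0.87 for miR-145-3p, -0.62 to 0.070 for miR-29c, -0.154 to 0.68 for miR-582-3p and -0.90 to 0.038 for miR-7-3p. The difference in the share of the leading miRNA was -2.85 to 1.56 points, against 0.0977 over all donors. The planned edgeR and DESeq2 alternatives were not run. With 2-fold changes mostly missed in simulation, a miRNA that did not pass may still differ, and miRNAs with few reads depend on the pseudocount.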
